A study of Homo sapiens with 4 samples.

Results

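The genes described here sense RNA or DNA that is foreign or in the wrong place in the cell, pass that signal on, or limit it. They are DDX58, IFIH1, DHX58, EIF2AK2, ADAR, TLR3, MAVS, TMEM173, IFI16 and TREX1, chosen by gene symbol. Where a symbol had several transcripts, the one with the highest mean FPKM stands for it. All 10 were found among the 19475 symbols of the table, and 9 of them were among the 11964 genes tested. The cells were SKOV3, a human line established from an ovarian cancer, and their RNA was sequenced in 2 libraries of cells grown flat on a tissue culture plate (TCP, labelled day 0) and 2 libraries of spheroids grown on plates coated with polymer X, a polymer thin film (labelled day 8). No allele, transgene or drug is given for any library. All 4 libraries carry the same label for culture medium, with serum replacement, while the methods of the study give fetal bovine serum for the maintenance of SKOV3 and serum replacement for the spheroids. Substrate and culture time changed together, and it is uncertain which medium the TCP cells had, so their parts cannot be told apart.

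Nucleic acid sensing in epithelial cells runs along separate arms. DDX58 (RIG-I), IFIH1 (MDA5) and DHX58 (LGP2) are the RIG-I-like receptors, helicases that bind double-stranded RNA in the cytosol. RIG-I and MDA5 signal through MAVS on mitochondria, TLR3 reads double-stranded RNA in endosomes, EIF2AK2 (PKR) answers it by blocking translation, and ADAR edits it so that self RNA is tolerated. On the DNA side TMEM173 (STING) is the adaptor of the cytosolic DNA sensor cGAS, IFI16 binds DNA in the nucleus and cytosol, and TREX1 is the exonuclease that degrades cytosolic DNA. Many of these genes are themselves induced by interferon through a promoter element called ISRE, which is bound by the complex ISGF3 or by IRF factors.

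Stretches of promoter with letters of this element are shown for the members in which they were found. Of these, EIF2AK2 was lower on polymer X, and IFIH1, DDX58 and IFI16 were higher. TLR3, which was not tested, had higher values. The part of these letters in the changes was not tested. RefSeq promoters of build GRCh38.p14, from 250 bases before to 50 bases after a start, were found for 8 of the 10 genes (11 promoters), with DDX58 listed as RIGI; DHX58 and TMEM173 had no entry. The letters searched on both strands were GAAANNGAAA, held by 3.57% of all 35116 promoters of this length, and the version with 1 base fewer in the gap, GAAANGAAA, held by 3.12%. Both were chosen with the sequences in view. Each line gives 30 bases, 5′ to 3′ on the strand of the gene, with the match in capitals.
IFIH1 (chr2:162318686-162318715, minus strand, match from -21 to -12): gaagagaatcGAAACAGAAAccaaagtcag
EIF2AK2 (chr2:37156967-37156996, minus strand, match from -6 to 4): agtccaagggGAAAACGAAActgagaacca
TLR3 (chr4:186069142-186069171, plus strand, match from -4 to 6, letters on the opposite strand): caagctttacTTTCACTTTCgagagtgccg
DDX58 (chr9:32526380-32526409, minus strand, match from -203 to -195): ggtgcggaggGAAACGAAActagcccgagg
IFI16 (chr1:159009843-159009872, plus strand, match from -54 to -46): ctgactaacaGAAACGAAAgctaaaaacac
Positions count from the RefSeq start. Promoters were taken by symbol, so this start need not be that of the transcript whose level is given. The longer letters stood in the promoters of IFIH1, EIF2AK2 and TLR3, and IFIH1 held 2 further matches that overlap each other, from -159 to -150 and from -153 to -144. The shorter letters stood in that of DDX58 and in 1 of the 2 promoters of IFI16. No match was found in these windows of ADAR, MAVS and TREX1. A match describes the letters and not a bound site.

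RIG-I-like receptors and the DNA-side genes IFI16 and TMEM173 were higher on polymer X, whereas the most abundant members changed little or were lower. Levels are given in FPKM, that is, tags scaled to transcript length and library size, so they can be compared between genes. Tests used limma on log2(FPKM + 1), and a gene was called at an adjusted p under 0.05 with a log2 fold change of 1 or more in either direction. IFI16, IFIH1, TMEM173 and DHX58 were called higher, 4 of the 10 genes (9 tested), against 10.7% of all genes tested, and 0 were called lower, against 9.45%. Of these 4, IFIH1 and DHX58 reached an FPKM of 1 only in the polymer X libraries. They were thus tested because of the group in which they were high. By the adjusted p alone, DDX58 was also higher (5 of 10, against 37.4%) and EIF2AK2, ADAR and TREX1 were lower (3 of 10, against 43.6%). MAVS did not pass, and TLR3 lay under the filter on low values. The groups did not overlap for any of the 10 genes, but the same was true of 90.4% of all genes tested. The median log2 fold change over all 10 genes, untested TLR3 included, was 0.58, beside -0.06 over all genes tested, and it was 1.13 with a pseudocount of 0.1.

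**Figure D1:**
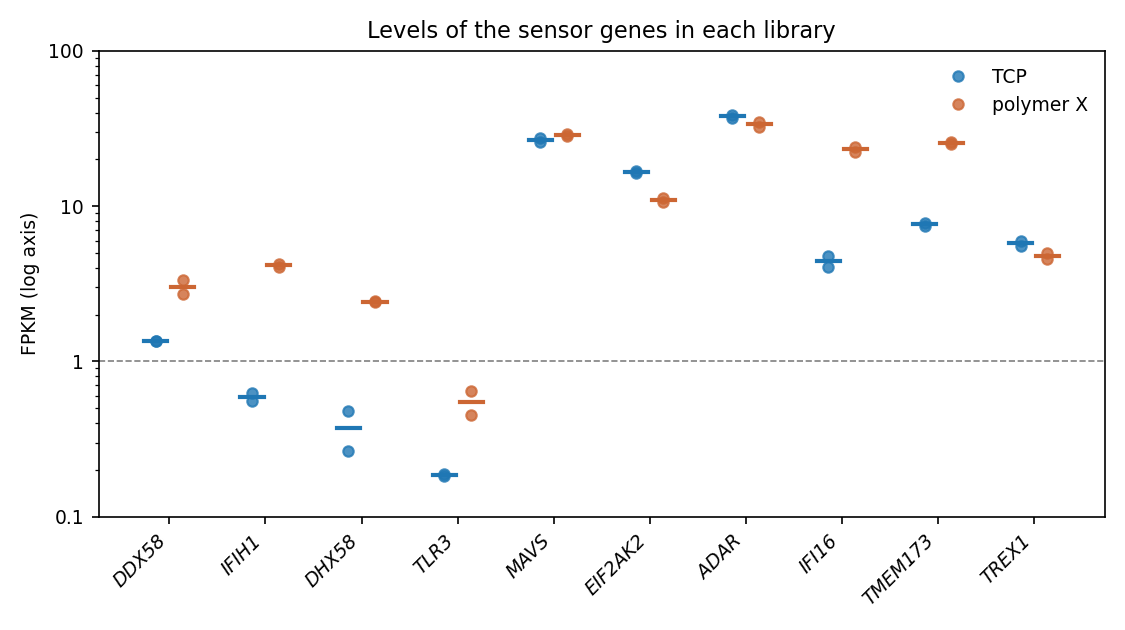
FPKM of each sensor gene on a log axis in the 2 TCP and the 2 polymer X libraries; points are libraries, bars are means and the dashed line is the filter at an FPKM of 1. The polymer X points of IFIH1, DHX58, IFI16 and TMEM173 lie far above the TCP points, and those of EIF2AK2, ADAR and TREX1 lie below them.

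The order of the levels changed with the culture. On TCP it ran from ADAR through MAVS, EIF2AK2, TMEM173, TREX1, IFI16, DDX58, IFIH1 and DHX58 to TLR3. On polymer X, TMEM173 and IFI16 stood above EIF2AK2, and IFIH1 stood above DDX58. Each gene was separate from its neighbour in both libraries of a group. ADAR and MAVS stayed first and second in both cultures.

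Among the RIG-I-like receptors, IFIH1 (NM_022168, hg19 chromosome 2, 163123589 to 163175218), whose product MDA5 prefers long double-stranded RNA, had FPKM values of 0.552 and 0.622 on TCP and of 4.25 and 4.05 on polymer X. This was a 7.07-fold rise, between 6.51 and 7.71 over the pairs of libraries, with a log2 fold change of 1.70 (SE, the standard error, 0.08, limma adjusted p = 7.1e-08). Of all genes tested, 3.78% had a log2 fold change at least as high. DHX58 (NM_024119, chromosome 17, 40253422 to 40264751), which encodes LGP2, a receptor without signaling domains that assists MDA5, had 0.481 and 0.265 FPKM on TCP and 2.401 and 2.438 on polymer X. The TCP libraries differed more from each other than those of polymer X, and they rested on 48 and 31 tags. The change was 6.49-fold, between 4.99 and 9.20 over the pairs, with a log2 fold change of 1.32 (SE 0.10, limma adjusted p = 1.3e-06). It was 0.87 under quantile normalization, under the minimum for a call. IFIH1 and DHX58 passed the filter on low values only through the polymer X libraries. For DDX58 (NM_014314, chromosome 9, 32455300 to 32526322), whose product RIG-I binds RNA with a 5′ triphosphate, the values were 1.35 in both TCP libraries and 3.35 and 2.71 on polymer X. Here polymer X replicate 1 was the higher, and the rise was 2.24-fold, with a log2 fold change of 0.77 (SE 0.09, limma adjusted p = 4.2e-05). With a pseudocount of 0.1 it was 1.10, past the minimum for a call.

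TLR3 (NM_003265, chromosome 4, 186990309 to 187006252) was the lowest of the 10 genes, at 0.189 and 0.183 FPKM on TCP and 0.642 and 0.454 on polymer X. These values rested on 22, 25, 78 and 56 tags. The exact Poisson 95% intervals were 0.118 to 0.286 and 0.119 to 0.271 FPKM for the TCP libraries, and 0.508 to 0.802 and 0.343 to 0.589 for those of polymer X, and they cover counting error only. Without the filter, TLR3 had a log2 fold change of 0.38 (adjusted p = 0.038 from limma), or 1.16 with a pseudocount of 0.1 (adjusted p = 0.029 from limma). In the fit without the filter on log2(FPKM + 1), 25.5% of all symbols were higher by the adjusted p alone. This share was not computed with a pseudocount of 0.1. MAVS (NM_020746, chromosome 20, 3827446 to 3856770), the adaptor of RIG-I and MDA5, was among the most abundant members, with 26.0 and 27.6 FPKM on TCP and 28.2 and 28.9 on polymer X. The log2 fold change was 0.09, with a 95% interval of -0.04 to 0.22 (adjusted p = 0.17 from limma). Under quantile normalization it was 0.33 (adjusted p = 0.00081 from limma), and over all alternatives the adjusted p ranged from 0.00081 to 0.61.

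PKR and ADAR, which respond to double-stranded RNA and limit its recognition, did not rise with the receptors. EIF2AK2 (NM_001135652, chromosome 2, 37332284 to 37374965) had 16.2 and 16.7 FPKM on TCP and 11.3 and 10.7 on polymer X. The level fell by 33.4%, a log2 fold change of -0.55 (SE 0.06, limma adjusted p = 2.4e-05), and it lay between -0.58 and -0.42 over the alternatives. Of all genes tested, 24.6% had a log2 fold change at least as low. The promoter shown above for this symbol holds the letters at its RefSeq start. The EIF2AK2 transcripts in the table begin at 37374965 or 37384190 (hg19), and the promoter was not matched to either. For ADAR (NM_001025107, chromosome 1, 154554534 to 154600456), the member with the highest level, the values were 37.1 and 38.7 on TCP and 34.7 and 32.4 on polymer X. The log2 fold change was -0.17 (SE 0.06, limma adjusted p = 0.022). Quantile normalization turned it to 0.11, and the adjusted p was 0.078 without the filter on low values. The 5 ADAR transcripts in the table share most of their tags, with log2 fold changes between -0.17 and -0.16, so the interferon-inducible and the constitutive isoform could not be read apart.

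**Figure D2:**
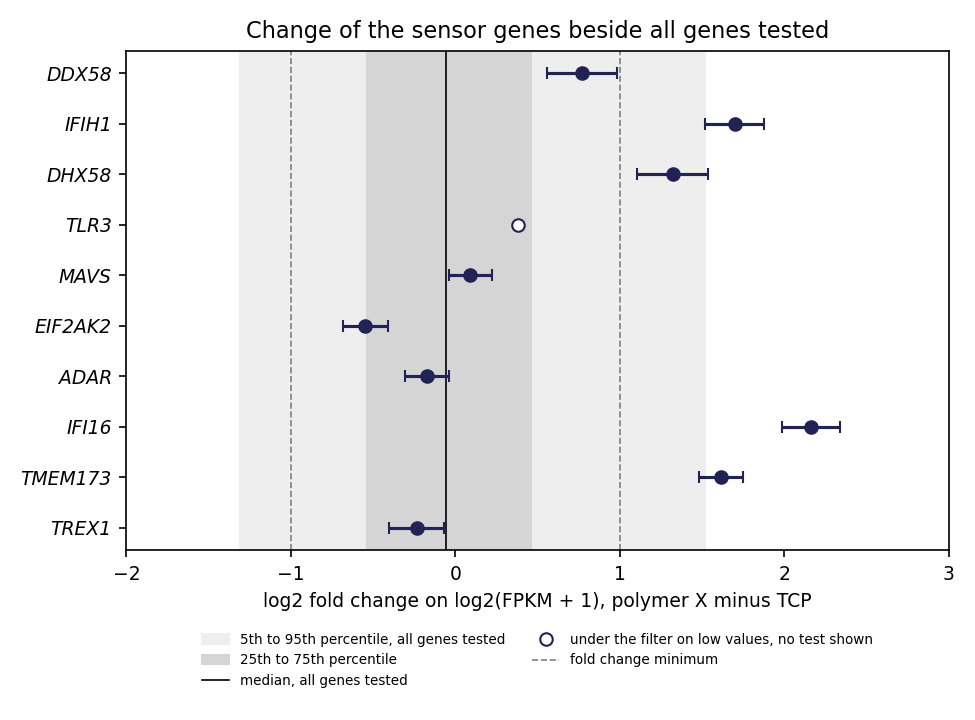
Log2 fold change of each sensor gene (polymer X minus TCP, on log2(FPKM + 1)) with its 95% interval from limma, beside the spread of all genes tested. IFI16, TMEM173 and IFIH1 lie above the 95th percentile of 1.52, and EIF2AK2, ADAR and TREX1 lie below the median of -0.06.

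On the DNA side, IFI16 (NM_005531, chromosome 1, 158979682 to 159024945) had the highest log2 fold change of the 10 genes on log2(FPKM + 1), whereas IFIH1 and DHX58 were above it by the fold of the means and with a pseudocount of 0.1. It had 4.74 and 4.07 FPKM on TCP and 24.1 and 22.2 on polymer X, with means of 4.40 ± 0.474 and 23.1 ± 1.37 (SD, n = 2). The rise was 5.26-fold, between 4.68 and 5.93 over the pairs of libraries, with a log2 fold change of 2.16 (SE 0.08, limma adjusted p = 1.5e-08). Of all genes tested, 1.90% had a log2 fold change at least as high. TMEM173 (NM_001301738, chromosome 5, 138855113 to 138861887) had 7.82 and 7.49 FPKM on TCP and 25.9 and 25.1 on polymer X. STING transcripts were thus 3.33-fold higher, with a log2 fold change of 1.62 (SE 0.06, limma adjusted p = 1.7e-08). Both genes stayed past the minimum of 1 for a call in every alternative fit. Their log2 fold changes ran from 2.07 to 2.37 and from 1.59 to 1.74. With the minimum set at 2, IFI16 was called and TMEM173 was not. TREX1 (NM_033629, chromosome 3, 48507629 to 48509044) had 5.56 and 5.99 FPKM on TCP and 4.96 and 4.55 on polymer X. The log2 fold change was -0.24 (SE 0.07, limma adjusted p = 0.016), but -0.15 with the longest transcript, where the adjusted p was 0.082. Its adjusted p ranged from 0.0038 to 0.11 over the alternatives.

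**Figure D3:**
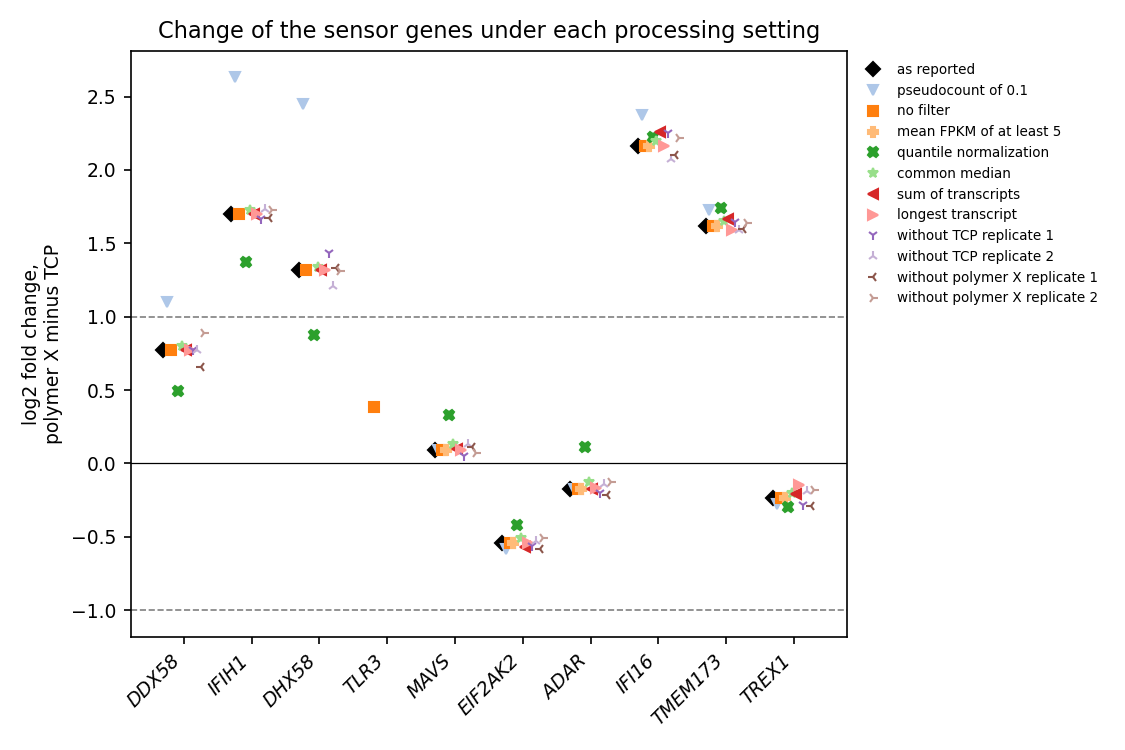
Log2 fold change of each sensor gene under the settings with a value of their own; black diamonds are the values as reported, dashed lines mark the minimum for a call, and TLR3 has its value without the filter (0.38). IFI16 lies between 2.07 and 2.37, DHX58 drops to 0.87 under quantile normalization and ADAR changes sign there, to 0.11.

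Of the 20 type I and type III interferon genes listed, 16 were listed at 0 in all 4 libraries, among them IFNB1, for which 3 tags would be an FPKM of 0.0780 to 0.0913. Many of these genes are near-identical copies whose tags may not have been assigned. RNF5, a ubiquitin ligase that most cells use, was also listed at 0 in 3 libraries, so a 0 in this table can be a failed estimate. The RNF5 row was placed on an alternate haplotype of chromosome 6 (6_cox_hap2), however, whereas that of IFNB1 was placed on chromosome 9. IFNE, an interferon of the epithelium of the female reproductive tract, was the 1 gene tested, with 1.04 and 0.817 FPKM on TCP and 4.42 and 4.38 on polymer X (log2 fold change 1.49, adjusted p = 2.7e-07 from limma). CGAS, the sensor upstream of STING, had 2 to 4 tags in each library, so no change could be read at this depth.

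The lists of pathway genes are read against the same shares of all genes tested, 10.7% called higher and 9.45% called lower. Downstream of the sensors, 2 of the 18 kinases and factors tested were called higher, close to that share, and 0 lower. IRF7, which amplifies interferon gene transcription, rose from 5.16 and 5.60 FPKM to 19.97 and 20.08, a log2 fold change of 1.72. TBKBP1, an adaptor that binds the kinase TBK1, rose by 1.05 on the log2 scale, and this was 0.96 without TCP replicate 1 and 0.99 without polymer X replicate 2, under the minimum for a call. TBK1 itself had a log2 fold change of -0.05 (adjusted p = 0.52 from limma), and IRF3 one of 0.37 (adjusted p = 0.00027 from limma). In the list of interferon receptors and ISGF3, 2 of 10 genes were called higher (10.7% of all genes) and 0 lower (9.45%), but 3 were higher and 1 lower with a pseudocount of 0.1 or without polymer X replicate 1. The 2 genes were IRF9 and STAT2, subunits of ISGF3, at log2 fold changes of 2.12 and 1.85.

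Of 9 partners of the DNA sensors, 0 were called higher (10.7% of all genes) and 2 lower (9.45%). By the adjusted p alone, 2 were higher, among them TRIM32 at a log2 fold change of 0.42, and 6 were lower, against 37.4% and 43.6% of all genes. The 2 genes called lower were PRKDC, the catalytic subunit of DNA-dependent protein kinase, at a log2 fold change of -1.82, and XRCC6 (Ku70), at -1.42, both of which also serve DNA repair. Without polymer X replicate 1, 4 genes of this list were called, all lower. Of 8 genes that remove nucleic acid, 1 was called higher, near the share of 10.7%, and 2 lower, against 9.45%. RNASET2, a lysosomal ribonuclease, was higher at 1.83. RNASEH2A and RNASEH2B, subunits of the enzyme that cuts RNA in hybrids with DNA, were lower at -1.51 and -1.23. Among 16 cofactors of the RIG-I-like receptors, 1 was called higher and 1 lower, no more than the shares of 10.7% and 9.45%. These were NLRC5 at 1.37 and the RNA helicase DHX9 at -1.21, the latter -0.89 under quantile normalization. With a pseudocount of 0.1 or a common median, 2 cofactors were called higher and 1 lower. TRIM25, the ubiquitin ligase linked to RIG-I activation, had a log2 fold change of 0.12 (adjusted p = 0.071 from limma). Of 5 genes of the endosomal TLR pathway, 1 was called lower, against 9.45% of all genes, and it was IRAK1, a kinase below MYD88, at -1.82.

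Of the 11 genes around PKR, 1 was called higher and 1 lower, close to the shares of all genes, 10.7% and 9.45%. EIF2S1, the translation factor subunit that PKR phosphorylates, was lower, from 34.2 and 34.6 FPKM on TCP to 14.03 and 12.55 on polymer X, which is -1.31 on the log2 scale (adjusted p = 1.1e-07 from limma). DDIT3 (CHOP), which can be induced when that factor is phosphorylated, was higher at 1.34, but phosphorylation was not measured. The other kinases of this factor, EIF2AK1, EIF2AK3 (PERK) and EIF2AK4 (GCN2), had log2 fold changes of -0.57, 0.49 and -0.58, with adjusted p values of 1.1e-05, 0.00040 and 1.5e-05 from limma. ATF4, of the same list, had a log2 fold change of -0.10 (adjusted p = 0.16 from limma), PPP1R15A one of -0.48 and PPP1R15B one of -0.72. By the adjusted p alone, 3 of the 11 genes were higher and 6 lower, against 37.4% and 43.6% of all genes.

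**Figure D4:**
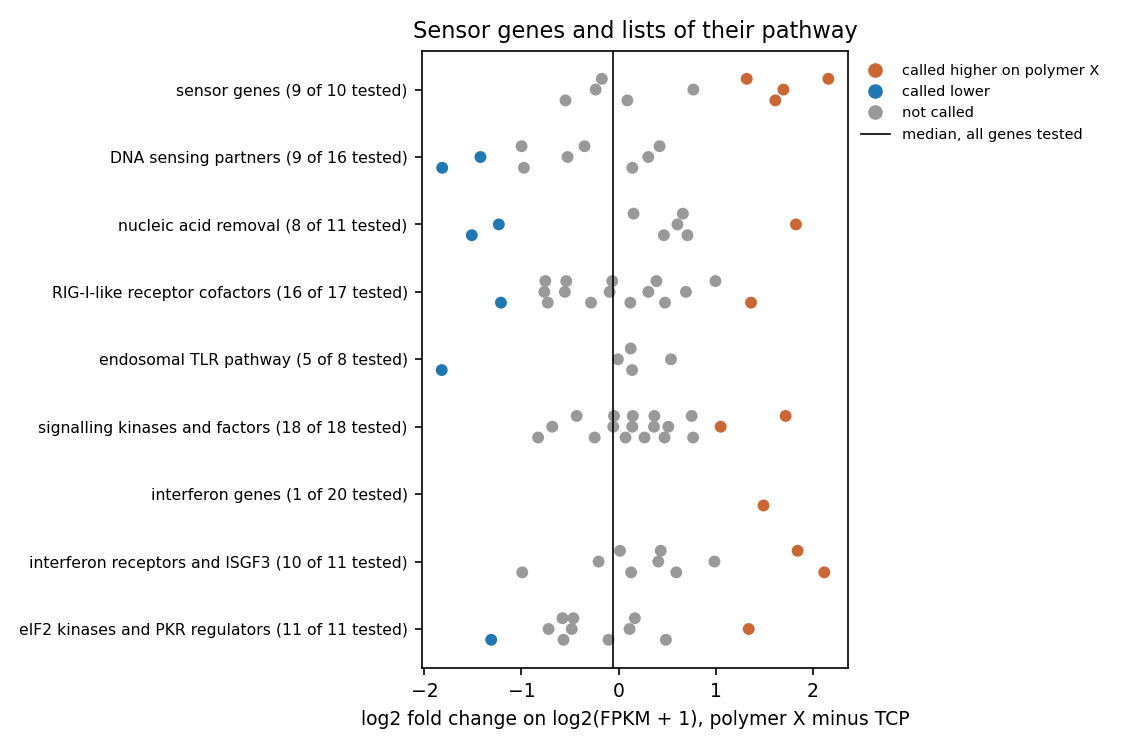
Log2 fold change (polymer X minus TCP) of each gene tested, with the sensor genes in the top row and the lists of their pathway below; orange points were called higher, blue points lower and grey points neither. Calls in both directions occur in 3 of the lists, and the kinases, ISGF3 and interferon gene lists hold calls in the higher direction only.

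The tag numbers of the libraries were 38404000 and 44915000 for TCP and 40028000 and 40683000 for polymer X. The 7 epithelial markers moved in both directions. KRT7, KRT8 and KRT18 were lower on polymer X by the adjusted p, with log2 fold changes of -0.76, -0.87 and -0.44, and ERBB2, PAX8 and EPCAM were called higher at 2.13, 1.06 and 1.05. KRT8, KRT18, ERBB2 and PAX8 lay between 48.8 and 913 FPKM in all libraries, whereas EPCAM had 0.168 and 0.104 FPKM on TCP and 1.39 and 1.33 on polymer X, and KRT19 did not exceed 0.734. The 7 leukocyte markers summed to 17.2 and 17.5 FPKM on TCP and to 43.3 and 46.1 on polymer X. Most of this was CD68, a lysosomal protein gene at 17.0 and 17.4 FPKM on TCP and 42.3 and 44.9 on polymer X. PTPRC, the pan-leukocyte marker, had 1 and 0 tags on TCP and 92 and 106 on polymer X, and CD3E was listed at 0 in all 4 libraries. The 4 endothelial markers summed to 0.457 to 0.485 FPKM on TCP and 0.599 to 0.832 on polymer X. Within this sum PECAM1 had 0 tags in both TCP libraries and 102 and 83 on polymer X, while KDR had 0.476 and 0.438 FPKM on TCP and 0.215 and 0.110 on polymer X. VWF and CDH5 did not exceed 9 tags. The part of these markers in the changes of the sensor genes was not tested. In bulk RNA, fewer cells of a type and less RNA per cell cannot be told apart. Nothing in the labels says that the libraries of a group came from separate cultures, so the p-values measure the spread between these libraries, and an exact permutation of 2 against 2 libraries could not reach the 0.05 level.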

How the data were processed

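The authors deposited 1 table of FPKM values for 50078 RefSeq transcripts of hg19, made with HOMER from tags on exons of either strand (antisense tags cannot be told apart). Per the labels, STAR 2.4.0 and DESeq were also named in the processing notes, without a role. No transcript of another symbol overlapped the 10 genes in the table. Values times length fell on whole tags (within 0.1 tag for 100% of 2047 to 2213 low values per library), which gave the tag numbers; if tags were mates of a pair, counting intervals are too narrow. The floor was 3 tags.

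Genes reaching an FPKM of 1 in 2 or more libraries entered limma 3.58.1 in R 4.3.3 (mean-variance trend, Benjamini-Hochberg adjustment over all genes tested), after a check on simulated data. A fold change on log2(FPKM + 1) understates that of low genes. Replicates correlated at 0.998 (TCP) and 0.997 (polymer X) across genes, and their mean chi-square per gene was 5.43 and 6.41, so they differed by more than counting error. The members and lists were chosen with earlier results of these data known. All members are named, and of each list up to 4 called genes per direction; other genes were named after their values were seen. The settings varied were the pseudocount (0.1), the filter (none, or a mean FPKM reaching 5), quantile normalization, a common median, a replicate block, summed or longest transcripts, no variance trend, other fold change minimums and each library left out. Plots were drawn with matplotlib 3.10.9.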

Additional observations from a re-analysis of the deposited data

How the results depend on the processing

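With the adjusted p as sole criterion, 4477 genes (37.4%) passed as higher and 5212 (43.6%) as lower, in place of 1285 and 1131. Among the 10 sensor genes (9 tested), 5 were then higher in place of 4, and 3 lower in place of 0. Calls in either direction then covered 8 of 9 tested DNA sensing partners and 8 of 8 genes of nucleic acid removal. They covered 13 of 16 receptor cofactors, 2 of 5 endosomal TLR genes and 14 of 18 kinases and factors. For interferon receptors and ISGF3 they covered 8 of 10, and for PKR 9 of 11. With the minimum of 1 these lists held 2, 3, 2, 1, 2, 2 and 2 calls. The counts are read against the 37.4% and 43.6% of all genes that passed as higher and lower. At a minimum of 2 there were 281 and 150 genes, 1 sensor gene higher, 1 call in the ISGF3 list and 0 in the other lists. With the filter set at a mean FPKM of 5, which leaves fewer genes, 702 genes and 2 sensor genes were higher, with 1 call among kinases and factors and 0 among interferon genes. Quantile normalization left 1 call each among receptor cofactors and among kinases and factors, ended the call of DHX58 (0.87) and turned ADAR to 0.11; the cause was not tested. With a pseudocount of 0.1, which shrinks low values less, the ISGF3 list had 4 calls, and the median of the 10 genes was 1.13 in place of 0.58. This median was not run under quantile normalization or the filter at 5. No filter with a pseudocount of 0.1 was added after seeing the data, for TLR3.

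With each library left out (the lone library of a group is assumed to vary like the other group), 1289 to 1325 genes were higher and 1053 to 1234 lower, and 4 sensor genes stayed higher in each fit. The median lay between 0.48 (without polymer X replicate 1) and 0.68 (without polymer X replicate 2). Calls ranged from 2 to 4 for DNA sensing partners and for the ISGF3 list, both 4 without polymer X replicate 1, and from 1 to 2 for kinases and factors, with 1 without TCP replicate 1 or polymer X replicate 2. A fit with a replicate block gave 1285 higher and 1131 lower genes, 4 sensor genes were higher, and no other call changed. Across genes, libraries that share a number deviated from their group means with a correlation of 0.093, and 2 pairs are too few to show a pairing, so no pairing was assumed. Depth limits CGAS, TLR3 and the interferon genes.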

Other observations

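Over the 4 libraries, the 3 tested genes outside the members with values most like those of IFI16 were GRB7, NEIL1 and RHPN1, by the Euclidean distance of log2(FPKM + 1) centred on the mean of each gene (0.033, 0.072 and 0.082). GRB7, an adaptor gene next to ERBB2, had 0.536 and 0.383 FPKM on TCP and 5.64 and 5.22 on polymer X. NEIL1, a DNA glycosylase, had 2.29 and 1.76 FPKM on TCP and 13.7 and 12.2 on polymer X, and RHPN1 had 0.430 and 0.265 on TCP and 5.07 in both polymer X libraries. GRB7 and RHPN1 passed the filter on low values only through the polymer X libraries, in which they were high. Likeness over 4 libraries in 2 groups mostly reflects the size of the change between the groups.

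TLR9, the endosomal sensor of DNA, was named after its values were seen. It had 0 and 8 tags on TCP and 72 in each polymer X library, with FPKM values of 0, 0.046, 0.465 and 0.458. It lay under the filter and was not tested. TLR7 and TLR8, the endosomal sensors of single-stranded RNA, had at most 2 tags in any library.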
